A study of Homo sapiens with 2 samples.

Results

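The genes described here are 36 genes of the NRF2 response and of the glutathione and thioredoxin systems, in MDA-MB-231 cells with and without forced expression of the microRNA miR-203. NRF2, encoded by NFE2L2, is a transcription factor that KEAP1 marks for destruction in resting cells. When oxidants or electrophiles modify KEAP1, NRF2 builds up, pairs with small MAF proteins and binds antioxidant response elements, where the repressor BACH1 competes with it. Its targets make glutathione, reduce thioredoxin and peroxides, supply NADPH, conjugate and export toxic compounds, and handle heme and iron. In many tumour cells this programme is active without an outside stress.

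MDA-MB-231 is a human breast cancer line without the hormone receptors or ERBB2 amplification, with mesenchymal features. One stable derivative was infected with a virus carrying an empty control vector and the other with a virus for overexpression of miR-203; both grew in DMEM with 10% fetal bovine serum. Each derivative is a single line with 1 array, and the labels do not say whether it is a clone or a pool. RNA of each was read on an Affymetrix array, which gives a log2 value for each probe set, a group of short probes against one transcript. The genes form a list fixed by name, drawn up with earlier results of these data known, and every probe set whose annotation gave exactly 1 symbol from the list was taken. Of the 36 genes, 34 had such a probe set, and they had 75 probe sets in all. The aldo-keto reductase AKR1B1 and the ferritin heavy chain FTH1 had none under this rule and were not analysed here. A gene is given by its probe set with the highest mean over both arrays, and counts as measured if the higher of its 2 values is at or above 5.37, the median of all probe set means. All 34 genes were measured, on both arrays, among 13311 measured genes in the whole data set.

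Of the marker genes of this line, VIM, CD44, CAV1, AXL and MSN lay above that level on both arrays, up to 13.90, and SPARC lay under it. PGR, CDH1 and ESRP1 lay under it, while ESR1, ERBB2, EPCAM and GATA3 lay above it, at most at 8.58. Of the blood and endothelial markers, PTPRC and CDH5 lay under it and PECAM1 and HBB above it, at most at 7.06. The summed linear values of those 4 markers were 237 on the empty-vector array and 228 on the miR-203 array, and their part in the results was not tested. The filter level is a convention and not a detection limit. miR-203 itself was not measured by a named probe set.

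The overexpressed microRNA is shown first, with its seed (bases 2 to 8, the part that pairs with target mRNAs) in capitals. The labels do not say which arm was made, and this is the arm usually meant by the name. It is taken from RefSeq, GRCh38.p14, chr14:104117469-104117490, plus strand, 22 bases, 5′ to 3′.
hsa-miR-203a-3p: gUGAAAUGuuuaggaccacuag

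The core of the antioxidant response element, TGACNNNGC, was searched on both strands in the 250 bases before each annotated start in the RefSeq promoter table (GRCh38.p14). Of 27 members with a window, 6 held a match in at least 1 window (22.2%), against 13.2% of 27305 genes, and by window 7 of 38 against 10.9% of 35116. The other 9 members, among them SLC7A11 and GSR, had no window in the table. The stretches of 5 of the 6 genes are printed, chosen with the differences known. They include genes with some of the larger differences here (TXNRD1, KEAP1) and a gene with a small one (GSTP1). Each runs 5′ to 3′ on the gene's strand, with the matching letters in capitals. PGD, the remaining gene, had 1 match and a difference of -0.20, against 0.16 for GCLM and 0.19 for ME1.
GCLM (chr1:93909431-93909514, minus strand): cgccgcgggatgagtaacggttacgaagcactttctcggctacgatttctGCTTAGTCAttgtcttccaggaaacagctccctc
TXNRD1, first start (chr12:104215630-104215738, plus strand): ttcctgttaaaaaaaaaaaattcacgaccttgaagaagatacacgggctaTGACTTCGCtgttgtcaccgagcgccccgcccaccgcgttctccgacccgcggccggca
TXNRD1, another start (chr12:104286880-104286988, plus strand): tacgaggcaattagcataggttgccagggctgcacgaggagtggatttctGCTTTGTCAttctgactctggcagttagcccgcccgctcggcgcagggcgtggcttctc
KEAP1 (chr19:10502772-10502875, minus strand): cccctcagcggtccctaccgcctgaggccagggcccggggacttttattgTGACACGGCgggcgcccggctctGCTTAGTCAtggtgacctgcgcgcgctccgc
ME1 (chr6:83431130-83431238, minus strand): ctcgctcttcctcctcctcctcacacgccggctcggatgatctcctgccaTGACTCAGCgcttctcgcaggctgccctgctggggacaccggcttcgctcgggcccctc
GSTP1 (chr11:67583696-67583804, plus strand): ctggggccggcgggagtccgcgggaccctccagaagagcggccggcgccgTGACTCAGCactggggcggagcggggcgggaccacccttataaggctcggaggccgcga

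In ME1 and GSTP1 the matching letters overlap TGANTCA, the motif of AP-1 factors, and in the other genes they do not. The match lies 34 bases before the start in GCLM, 66 in GSTP1 and 137 in ME1, counted from its first base. A match in these letters says nothing about whether a factor was bound in these cells.

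A difference is the log2 value on the miR-203 array minus that on the empty-vector array. Replicate error could not be measured from 1 array per line. No test was therefore made, and effects of miR-203, culture, RNA preparation and hybridisation cannot be told apart. The range over a gene's probe sets and the spread over all measured genes describe these arrays and do not replace replicates.

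Expression of most of these genes differed little between the lines. The 34 genes had a median difference of -0.019, from -0.54 to 0.42, with 14 above 0 and 20 below. Over all measured genes the median was 0.013, and 52.1% lay above 0. At a threshold of 1.2-fold, 2 members were higher and 2 lower, where 11% of all measured genes were higher and 7.35% lower. No member reached 1.5-fold in either direction (0 higher and 0 lower of 34), where 0.721% of all measured genes were higher and 1.08% lower, nor 2-fold (0.105% higher and 0.27% lower among all measured genes). The 2 higher members were SLC7A11 and GSR and the 2 lower were TXNRD1 and KEAP1.

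The members are mostly bright on these arrays, and 24 of the 34 lay in the brightest quartile of all measured genes by mean level. Of the 34, 19 differed by less than 0.1 in size, against 41.1% of all measured genes, and of the 24 it was 16, against 46.8% of all genes of that quartile. Within each quartile the middle 95% of differences was taken as a description of spread. It ran from -0.30 to 0.39 in the brightest quartile and from -0.35 to 0.47 in the next. SLC7A11 and TXNRD1 were the members outside the range of their quartile (2 of 34, where the rule itself fixes the share of all genes at 5.05%). SLC7A11, with a mean level of 9.54, lay at the lower edge of the brightest quartile, which began at 9.52, and its difference was inside the range of the next one.

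**Figure D1:**
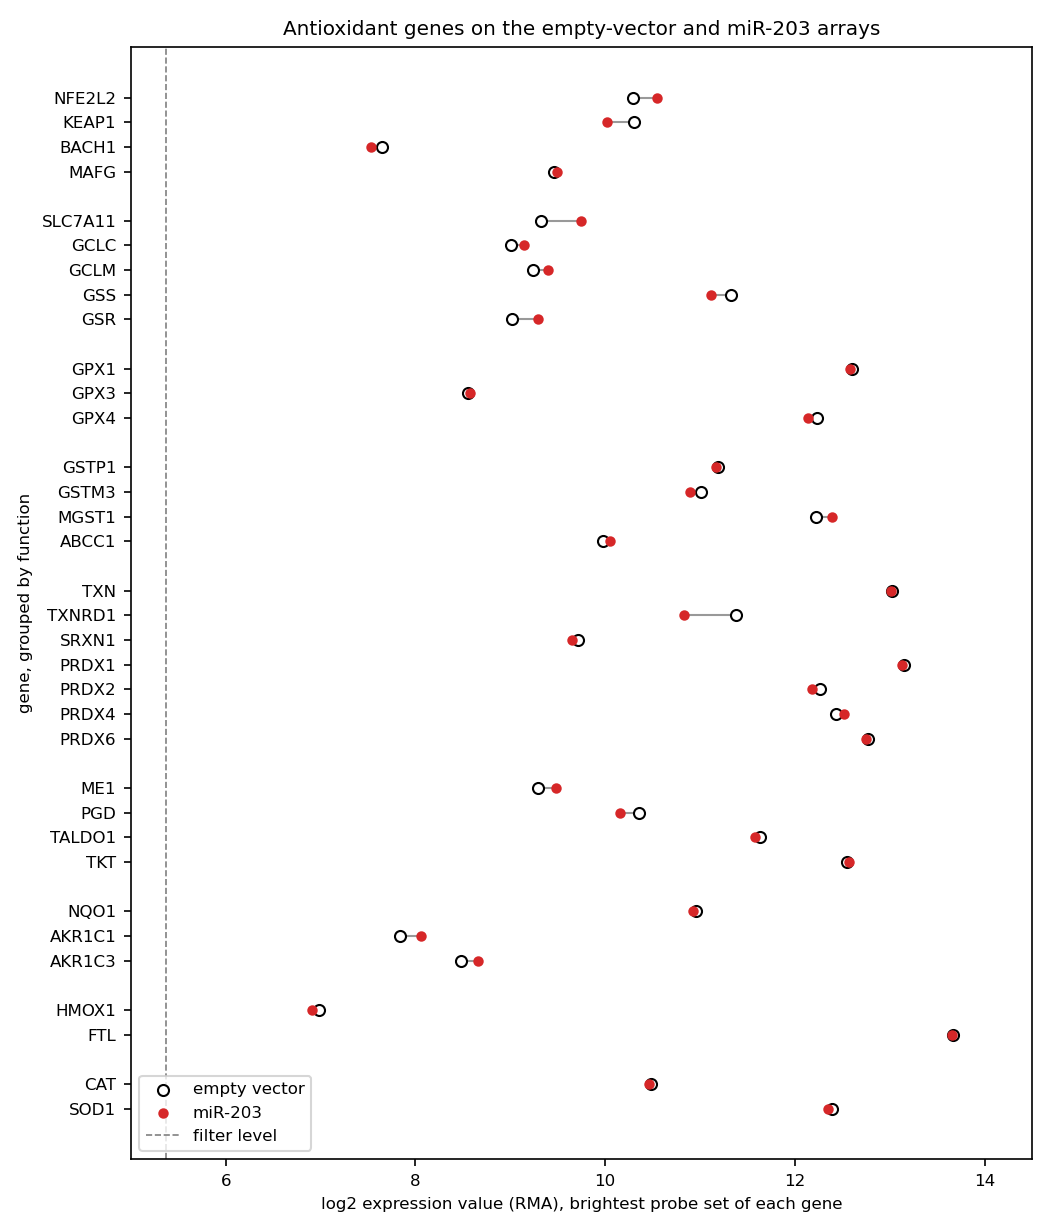
Log2 expression value (x axis) of each measured gene (y axis, grouped by function) on the empty-vector array (open circles) and the miR-203 array (red), with the filter level dashed. Most pairs overlap at least in part. The open and red circles are furthest apart for TXNRD1 (11.38 and 10.83) and SLC7A11 (9.32 and 9.75). Values of different genes come from different probes and are not comparable.

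**Figure D2:**
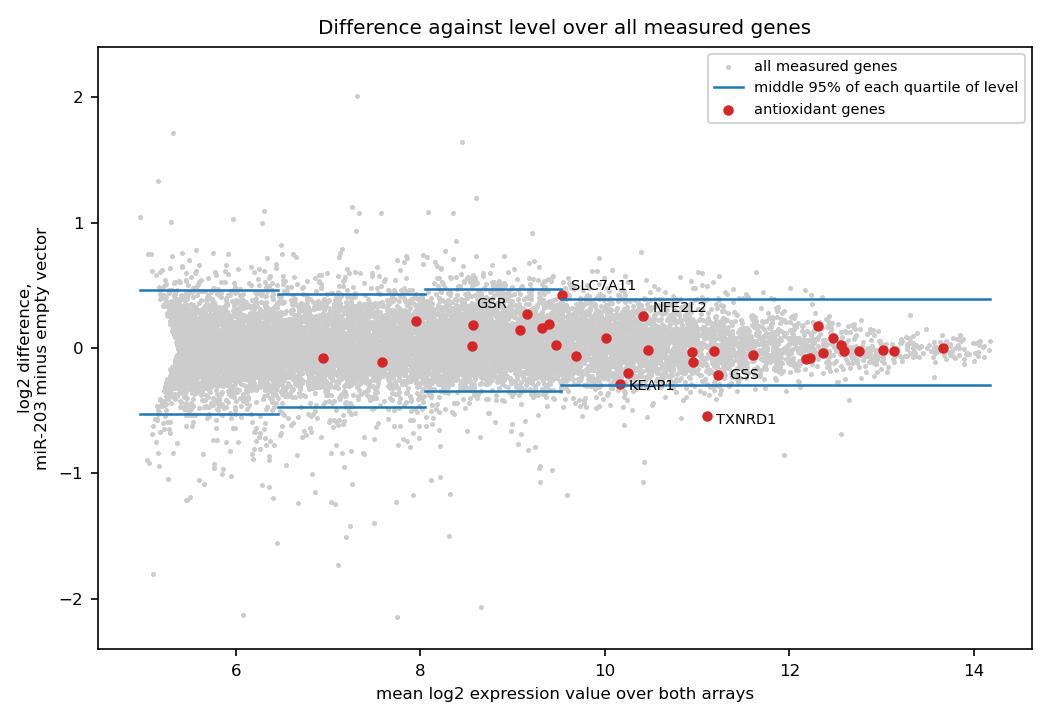
Difference between the arrays (y axis, log2) against the mean log2 value over both arrays (x axis) for all 13311 measured genes (grey) and the 34 members (red); blue lines bound the middle 95% of differences in each quartile of level. TXNRD1 lies below its range and SLC7A11 above it.

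The regulators of the pathway lay on both sides of 0. NFE2L2 had a value of 10.29 on the empty-vector array and 10.54 on the miR-203 array. The difference was 0.26 (1.19-fold), and a dimmer probe set gave 0.094. KEAP1, the adaptor that targets NRF2 for degradation, had 10.30 and 10.02 by its 1 probe set, 1.22-fold lower on the miR-203 array. The activator was thus slightly higher and its inhibitor slightly lower, and both lay inside the spread of the brightest quartile. BACH1, which represses NRF2 targets, had 7.64 and 7.53, a difference of -0.11. MAFG, a small MAF partner of NRF2, had 9.46 and 9.49. Its difference of 0.026 turned to -0.036 by the second probe set and to -0.011 when a trend with level was removed, so that it had no stable sign.

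Genes that supply glutathione made up the set with most differences above 0, at 4 of 5, with a median of 0.16. Among all measured genes 52.1% lay above 0, and a set of 5 genes is small. SLC7A11, the cystine transporter that brings in the cysteine for glutathione, had 9.32 on the empty-vector array and 9.75 on the miR-203 array. This was a difference of 0.42 (1.34-fold), and the other probe sets gave 0.42 and 0.35, so that all 3 were higher on the miR-203 array. Of all measured genes, 5.33% differed by at least as much in size. 

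The subunits of glutamate-cysteine ligase, which makes the first and rate-limiting step of glutathione synthesis, were also above 0 by each probe set. GCLC, its catalytic subunit, had 9.00 and 9.15, and its 2 probe sets above the filter level gave 0.14 and 0.18. GCLM, its modifier subunit, had 9.23 and 9.39 by the brightest probe set, a difference of 0.16. The dimmer probe sets of GCLM gave 0.20 and 0.46, so that the size of its difference depended on the probe set. GSR, which regenerates reduced glutathione with NADPH, had 9.02 and 9.29, 1.21-fold higher. Its second probe set gave 0.075, and GSR passed 1.2-fold neither by the median of its probe sets nor after centring the arrays, at 0.26.

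GSS, which completes glutathione by adding glycine, was on the other side. It had 11.33 on the empty-vector array and 11.12 on the miR-203 array, which is -0.21 by the brightest probe set and -0.21 by the other. The ligase and GSS, which act in sequence on the way to glutathione, thus had differences of the same sign over their own probe sets, and of opposite sign to each other. In this set 5 of 5 genes had all probe sets at or above the filter level on one side of 0. Over all 34 members this held for 14 of the 21 with several such probe sets, against 52.7% of 6285 genes.

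**Figure D3:**
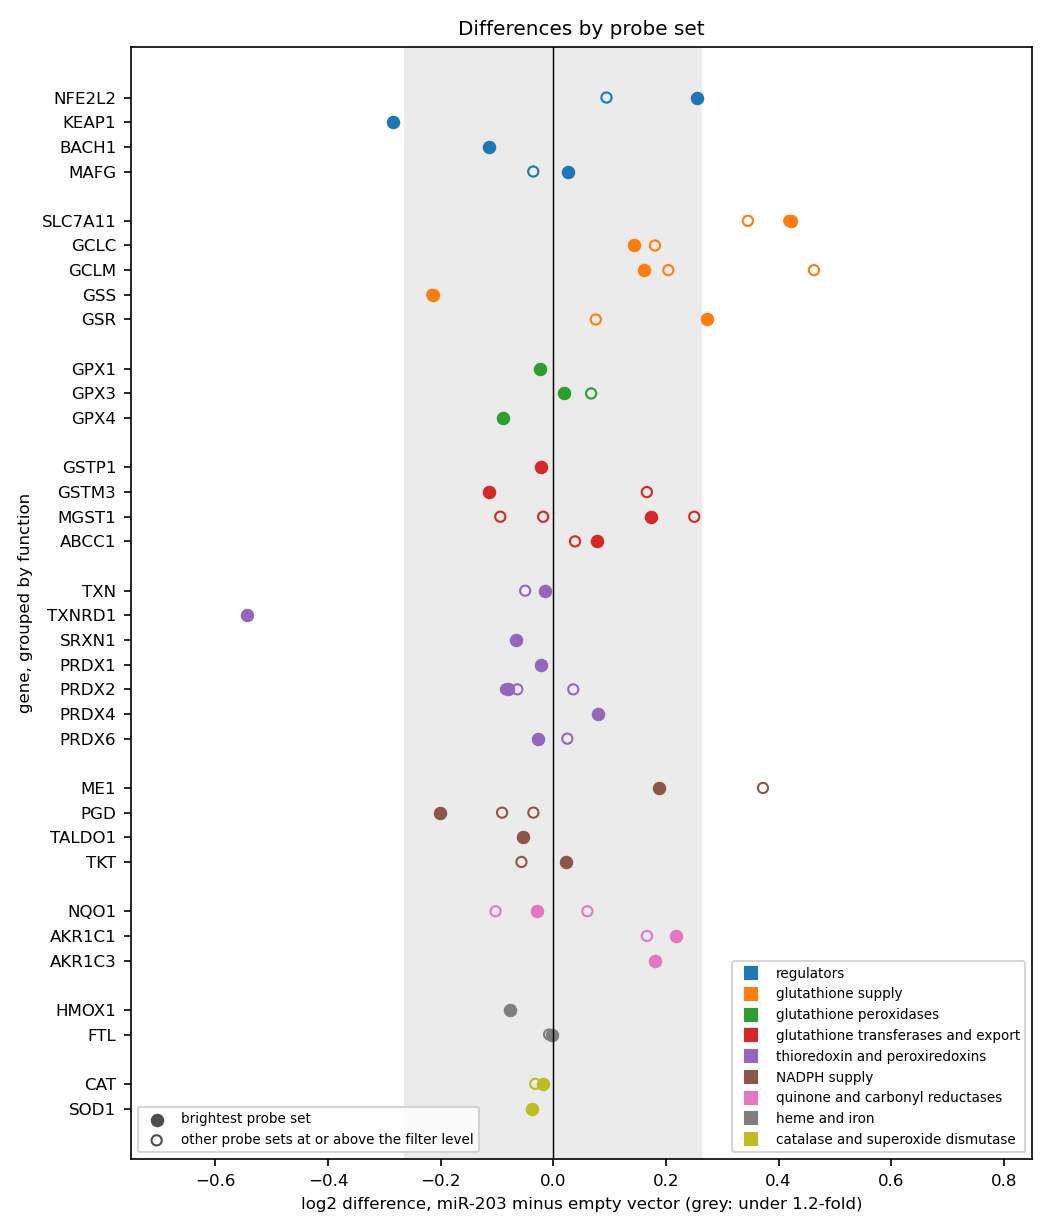
Log2 difference of miR-203 minus empty vector (x axis) for each probe set at or above the filter level, by gene (y axis) and coloured by function; filled points are the brightest probe set, open points the others, and grey marks differences under 1.2-fold. The glutathione supply genes lie right of 0 except GSS, and TXNRD1 is the leftmost gene at -0.54.

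Among the 7 listed genes of the thioredoxin system and the peroxiredoxins, TXNRD1 was the one past 1.2-fold. TXNRD1, the selenoprotein that reduces thioredoxin, had 11.38 on the empty-vector array and 10.83 on the miR-203 array. The difference was -0.54 (1.46-fold lower), which ranked 168 from the lowest of all measured genes and was the lowest of the 34 members. This rests on 1 probe set, since the other one for TXNRD1 lay far under the filter level at 2.01 on both arrays.

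The other 6 genes of this set lay in the brightest quartile and each differed by less than 0.1, as did 46.8% of all genes of that quartile. TXN, thioredoxin itself, had 13.03 and 13.01. SRXN1, sulfiredoxin, which repairs overoxidised peroxiredoxins, had 9.72 and 9.65. The peroxiredoxins break down hydrogen peroxide, and the 4 on the list ran from -0.080 for PRDX2 to 0.080 for PRDX4, the member of the family found in the endoplasmic reticulum. PRDX1 had 13.15 and 13.13 and PRDX6 12.77 and 12.75. TXN, SRXN1 and the 4 listed peroxiredoxins had nearly equal values on both arrays, while the reductase did not. Over the 7 genes of the set the median was -0.026. This does not extend to the whole family. PRDX3 and TXN2, which are not members and are given below with the other pathway genes, were 1.27-fold and 1.23-fold lower.

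The glutathione peroxidases, which use glutathione to reduce peroxides, had differences from -0.090 to 0.019. GPX4, the enzyme that protects membrane lipids, had 12.23 and 12.14. GPX1 had 12.61 and 12.58. GPX3, the secreted form, had 8.55 and 8.57, and its sign turned to -0.016 with the trend removed.

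Glutathione transferases and the conjugate exporter ABCC1 showed no common direction, with a median of 0.028 over 4 genes. MGST1, a membrane-bound transferase, had 12.22 and 12.39, a difference of 0.17, but its 4 probe sets above the filter level ran from -0.094 to 0.25. The MGST1 probe set at -0.094 was dim (6.17 and 6.07), and a brighter MGST1 probe set (11.25 and 11.23) gave -0.018. GSTM3 gave -0.11 with the brightest probe set (11.01 and 10.89) and 0.17 with the other, a dim one (5.84 and 6.00). Neither gene had a direction that its probe sets share. GSTP1, the transferase with a response element match printed above, had 11.19 and 11.17, and ABCC1 had 9.98 and 10.05.

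Genes that make NADPH, the electron source of both systems, were split. ME1, malic enzyme, had 9.30 on the empty-vector array and 9.48 on the miR-203 array, a difference of 0.19, and 0.37 by the second probe set above the filter level. PGD, of the oxidative pentose phosphate pathway, had 10.35 and 10.15, a difference of -0.20. Its dimmer probe sets gave -0.035 (5.49 and 5.45) and -0.091 (5.41 and 5.32), at about the filter level. ME1 and PGD were thus on opposite sides of 0, each by all of its probe sets that reached the filter level. For PGD only the brightest lay well above it. The enzymes of the non-oxidative branch, TALDO1 (-0.054) and TKT (0.022), lay close to 0, and TKT was at -0.057 by its other probe set above the filter level.

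NQO1, the quinone reductase often used as a readout of NRF2 activity, had 10.96 on the empty-vector array and 10.93 on the miR-203 array. Its 3 probe sets gave -0.10, -0.029 and 0.060, on both sides of 0. AKR1C1 and AKR1C3, which reduce ketones and aldehydes including steroids, were above 0. AKR1C1 had 7.84 and 8.06, a difference of 0.22, with 0.17 by its second probe set above the filter level. AKR1C3 had 8.48 and 8.66, a difference of 0.18. These genes are close copies of each other, and the AKR1C1 probe sets can match related transcripts, so they are not independent measurements.

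Heme and iron genes and the remaining oxidant enzymes had nearly equal values. HMOX1, heme oxygenase 1, had 6.98 and 6.91, a difference of -0.077. FTL, the ferritin light chain, had 13.66 and 13.66, and its difference of -0.0021 turned to 0.0092 with the trend removed. Catalase (CAT) had 10.48 and 10.46, and SOD1, the cytosolic superoxide dismutase, 12.39 and 12.35.

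The genes with a response element match in the printed or named windows did not share a direction. GCLM and ME1 were above 0, and TXNRD1, KEAP1, PGD and GSTP1 below it.

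Other genes of the same pathways were taken from a list of 131, of which 107 were measured. Their median difference was 0.034, with 64 above 0, 40 below and the other 3 at 0, where 52.1% of all measured genes lay above 0. At 1.2-fold, 12 were higher and 6 lower of 107, against the 11% and 7.35% of all measured genes. At 1.5-fold, 0 were higher and 2 lower by the brightest probe set, against 0.721% and 1.08% of all measured genes. The 2 lower were PARK7 and BACH2. PARK7 (DJ-1), a redox-sensitive protein reported to stabilise NRF2, had 12.90 on the empty-vector array and 12.22 on the miR-203 array, 1.61-fold lower by its 1 probe set. BACH2, a repressor related to BACH1, had 6.54 and 5.90, a difference of -0.64, and -0.34 by the other probe set.

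CBS, which makes the cystathionine that CTH uses, is named here after its values were seen, because its probe sets disagreed. The brightest had 5.59 on the empty-vector array and 5.80 on the miR-203 array, a difference of 0.21. Another had 6.00 and 4.64, a difference of -1.36 (2.57-fold lower), and the dimmest had 5.37 and 4.45, a difference of -0.93. These were the largest differences in size of any probe set at or above the filter level on this list, and both miR-203 values lay under that level. CBS therefore has no settled direction, and it counts as above 0 and under 1.2-fold only through its brightest probe set.

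On the higher side, IDH1, which makes cytosolic NADPH from isocitrate, had 11.16 and 11.62, 1.38-fold higher, with 0.35 by the second probe set. CTH, which makes cysteine from cystathionine, had 9.33 and 9.76, 1.35-fold higher, with 0.29 by the second. ALDH1A3, an aldehyde dehydrogenase that makes retinoic acid, had 6.68 and 7.16 by 1 probe set. The iron exporter SLC40A1 was at -0.46, but with 5.30 on the miR-203 array it was under the filter level there. GSTO2, an omega class glutathione transferase, was at -0.39, and the probe sets of GSTCD disagreed, with 0.37 for the brightest and -0.16 for another.

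Of the sets on this list, the other glutathione synthesis and turnover genes had a median of 0.083 over 10 genes, with 2 higher and 0 lower at 1.2-fold by the brightest probe sets, where 11% and 7.35% of all measured genes were. The 0 includes CBS, which is past 1.2-fold lower by its other 2 probe sets. The other thioredoxin, peroxiredoxin and glutaredoxin genes had 0.027 over 18, with 1 higher and 2 lower. The other detoxification enzymes and transporters had the highest median of the 8 sets, 0.16 over 18 genes, with 2 higher and 0 lower.

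**Figure D4:**
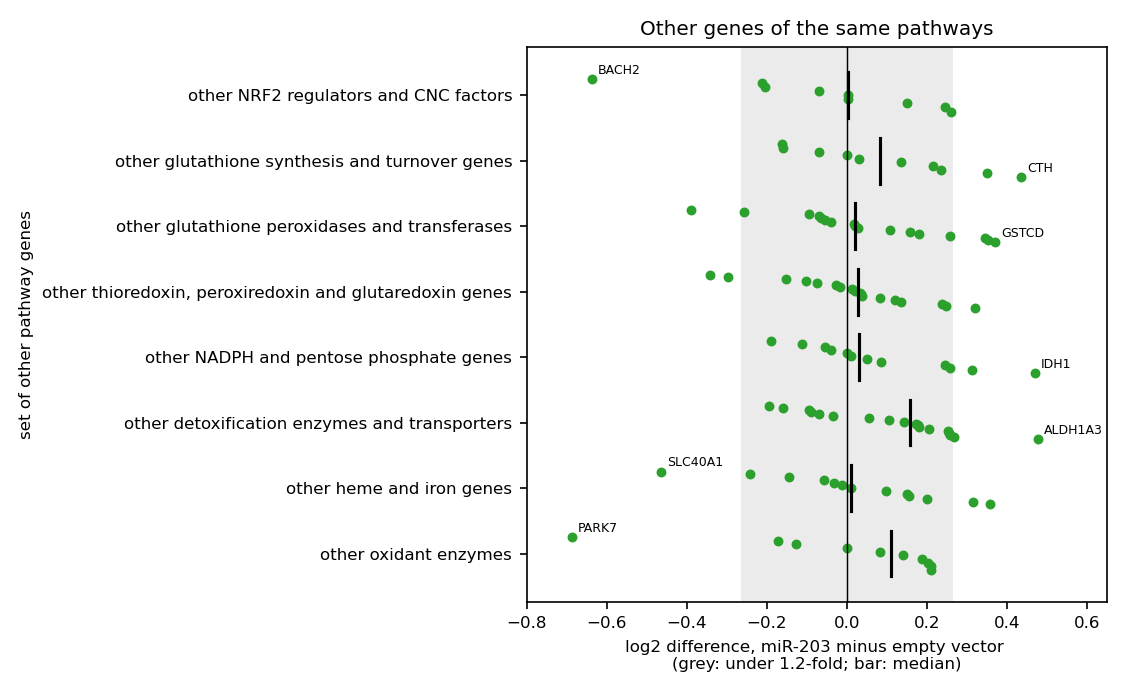
Log2 difference of miR-203 minus empty vector (x axis) for the 107 measured genes of 8 sets of other pathway genes (y axis), 1 point per gene, with the median of each set as a black bar and differences under 1.2-fold shaded. PARK7 and BACH2 lie furthest to the left, and ALDH1A3 and IDH1 furthest to the right.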

How the data were processed

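The deposited table holds log2 expression values of 54675 probe sets on 2 Affymetrix arrays, 1 per cell line. The authors made these log2 values with RMA, per the submitters' processing notes; no version of it is stated in the labels. That the scale is log2 follows from the range, 1.37 to 14.23. After sorting, the arrays were never further apart than 0.095, so any general rise or fall of mRNA is lost. Symbols came from the platform annotation, updated through gene identifiers; 41091 probe sets had 1 symbol, 1801 had several and were not used. Among the latter, 5 named one of 3 members.

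All members were named. Of the other pathway genes, the 8 with the largest differences by their brightest probe sets were named. CBS, PRDX3, TXN2 and GLRX3 were named after their values were seen. The members and lists were chosen with earlier results of these data known. No test was possible with 1 array per group. The number of arrays limits the precision. Python 3.11.15 and pandas 2.3.3 were used. The computation was tested on simulated data. Also tried were a filter at the 75th percentile or none, the median over probe sets, no _x_at or _s_at probe sets, a loess trend removed (span 0.3), centring, raising values under the filter level to it, and other fold thresholds.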

Additional observations from a re-analysis of the deposited data

How the results depend on the processing

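No paired analysis was possible because there was 1 array per line, and for the same reason no replicate could be left out. The median difference of the members stayed below 0 under the 7 alternatives run on it, from -0.032 with centring to -0.018 with the stricter filter, and that of the other pathway genes stayed above 0, from 0.019 to 0.036. The count of members at least 1.2-fold higher, 2, was 1 with the loess trend removed and 1 with centring, and 0 at 1.5-fold and 0 at 2-fold. The member lost by the trend and by centring was GSR. With the median over probe sets the count stayed at 2 but its members changed, as GSR, at 0.17, left and ME1, at 0.28, came in. The count at least 1.2-fold lower, 2, was 0 at 1.5-fold and 0 at 2-fold and kept its value of 2 under the other alternatives. No member past 1.2-fold changed sign (0 under each alternative). Members with small differences did: 3 with the median over probe sets (MAFG, GSTM3 and TKT), 2 without _x_at and _s_at probe sets (GSTM3 and MGST1) and 3 with the loess trend removed (MAFG, GPX3 and FTL). Without the _x_at and _s_at probe sets 26 members were measured and ME1, at 0.37, joined those 1.2-fold higher. The median of the 4 NADPH genes, -0.016, turned to 0.086 there, where 2 of them were measured.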
